A study of Mus musculus with 2 samples.

Results

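The NR4A and EGR genes encode transcription factors that lymphocytes switch on within a short time of signalling through the antigen receptor. They are described here with the NAB corepressors and with Cd69, an early activation marker. The 10 genes were chosen by name: Nr4a1, Nr4a2, Nr4a3, Egr1, Egr2, Egr3, Egr4, Nab1, Nab2 and Cd69. Earlier results of these data were known when they were chosen. All 10 had rows on the array, 13 rows in all, out of 30142 genes with a row of their own, and 8 of the 10 were above background on at least 1 array. The arrays measured RNA of Vγ6 γδ T cells sorted by flow cytometry from the thymus of newborn (0-day-old) C57BL/6 mice. One array was from wild-type (WT) mice. The other was from mice without MHC class II, whose molecules show peptides to CD4 T cells, labelled MHC class II KO and called the KO array below. The study asked how gene expression in these cells differs when MHC class II is absent. The labels name neither the disrupted class II gene nor any pooling of animals. With 1 array per genotype there was no spread between replicates and no test, so every difference below describes these 2 arrays only.

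NR4A1, NR4A2 and NR4A3 (also called Nur77, Nurr1 and Nor1) are orphan nuclear receptors that bind DNA without a known physiological ligand, and their transcripts rise and decay quickly after a receptor signal. EGR proteins bind GC-rich DNA through zinc fingers, and NAB1 and NAB2 bind EGR proteins and repress their targets. In the thymus, genes of both families are used as readouts of T cell receptor signal strength, and strong signals that raise them take part in γδ lineage choice and in negative selection of αβ thymocytes. CD69 is a C-type lectin that reaches the surface soon after activation and holds cells in tissue by pulling down the sphingosine 1-phosphate receptor S1PR1.

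The promoters of the NR4A genes are shown because Nr4a1 and Nr4a2 held the lowest differences of the members, as described further on, and Nr4a3 is their close relative. RefSeq windows of 300 bases on build GRCm38.p6, from 250 bases before to 50 after the annotated start, were matched by symbol for 7 of the 10 members, and not for Egr1, Egr3 and Cd69. They are printed 5′ to 3′ in the direction of the gene. Capitals mark TGACG on either strand, read as CGTCA on the other, the core bound by CREB and ATF factors. In Nr4a1 and Nr4a2 they also mark the EGR motif GCGNGGGCG, in Nr4a2 the MEF2 motif, and in Egr2 the CArG box of serum response factor. The windows lie at chr15:101266596-101266895 (plus strand) for Nr4a1, chr2:57123954-57124253 (minus strand) for Nr4a2, and chr4:48045055-48045354 (plus strand) for Nr4a3. The third of 5 Egr2 windows, at chr10:67537619-67537918 (plus strand), is given for comparison.
Nr4a1: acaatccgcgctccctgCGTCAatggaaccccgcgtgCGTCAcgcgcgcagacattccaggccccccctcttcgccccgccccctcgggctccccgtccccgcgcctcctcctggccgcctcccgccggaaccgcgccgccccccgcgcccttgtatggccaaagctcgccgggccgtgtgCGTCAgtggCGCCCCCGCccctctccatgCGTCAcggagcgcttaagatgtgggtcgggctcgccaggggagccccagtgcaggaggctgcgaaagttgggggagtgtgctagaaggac
Nr4a2: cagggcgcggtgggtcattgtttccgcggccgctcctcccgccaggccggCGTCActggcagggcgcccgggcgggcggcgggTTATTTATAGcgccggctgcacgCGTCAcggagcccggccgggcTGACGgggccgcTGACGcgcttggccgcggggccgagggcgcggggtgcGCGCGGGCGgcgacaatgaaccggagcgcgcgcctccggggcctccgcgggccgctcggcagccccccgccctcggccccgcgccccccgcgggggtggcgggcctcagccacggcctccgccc
Nr4a3: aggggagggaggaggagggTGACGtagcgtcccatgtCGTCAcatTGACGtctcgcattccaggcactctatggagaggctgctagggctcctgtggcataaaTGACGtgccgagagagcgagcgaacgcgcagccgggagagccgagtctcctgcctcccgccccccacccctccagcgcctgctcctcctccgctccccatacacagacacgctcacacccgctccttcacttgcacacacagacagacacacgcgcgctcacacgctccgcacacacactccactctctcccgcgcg
Egr2: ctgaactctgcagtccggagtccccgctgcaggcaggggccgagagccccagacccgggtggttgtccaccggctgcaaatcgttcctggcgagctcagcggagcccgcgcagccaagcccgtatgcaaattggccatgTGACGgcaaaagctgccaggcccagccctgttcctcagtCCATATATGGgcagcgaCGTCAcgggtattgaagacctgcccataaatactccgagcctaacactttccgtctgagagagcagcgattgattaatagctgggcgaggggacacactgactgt

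Each of the 3 NR4A windows held 4 copies of TGACG. Of 32851 windows in the table, 20.8% held at least 1 copy and 0.231% held 4 or more. Among the 9690 windows with a GC content of at least 60%, 0.557% held 4 or more, and the NR4A windows had GC contents of 72.3% (Nr4a1), 81.7% (Nr4a2) and 64.7% (Nr4a3). In Nr4a1 the copies began 233, 213, 69 and 40 bases upstream of the start, and the EGR motif began 60 bases upstream. In Nr4a2 they began 200, 144, 123 and 111 bases upstream, with the MEF2 motif at 167 and the EGR motif at 74. In Nr4a3 they began 231, 213, 205 and 147 bases upstream, and no EGR motif was matched. Egr4 held 2 copies of TGACG, Nab1 held 1 copy and 3 EGR motifs, and Nab2 held no match to any motif searched. Of the 5 Egr2 windows, 4 held a CArG box and 3 of those also held 2 copies of TGACG, the last 3 windows overlapping one another. Over all windows the EGR motif was found in 5.55%, the CArG box in 1.63% and the MEF2 motif in 3.19%. The full cyclic AMP response element TGACGTCA (1.79% of all windows), the NR4A monomer site AAAGGTCA (1.51%) and the AP-1 site TGANTCA (7.81%) were searched as well and matched in no member window. All motifs were searched on both strands, TGACG is contained in TGACGTCA, and the marked matches do not overlap. A match describes the letters of the window and is not a measured binding site.

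**Figure D1:**
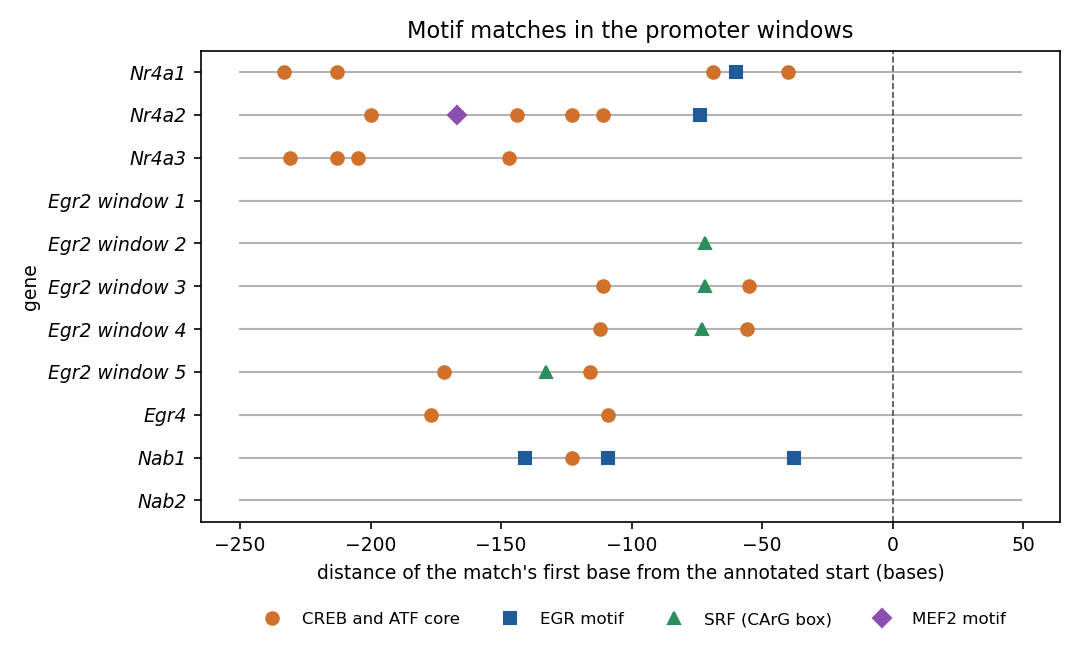
Motif matches in the promoter windows of the 7 members that had one. The x axis gives the distance in bases from the annotated start to the first base of each match, and each grey line is a window of 300 bases. The 3 NR4A windows each hold 4 CREB and ATF cores, while the CArG box is seen in 4 of the 5 Egr2 windows.

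Genes that hold 4 or more copies of TGACG in a window were also read on the arrays, a group formed after the NR4A windows had been seen. Of 69 such genes, 51 were above background, and 48 of those were not members. The 48 had a median difference of 0.05 between the arrays (log2 signal, KO minus WT), and 1 of them (2.08%) was at least 1.5-fold lower and none higher. That gene, Ell2, which encodes a transcription elongation factor, had a difference of -0.75. Among 169 genes with 3 copies none was at least 1.5-fold lower and 5 were higher (median 0.07). The share at least 1.5-fold lower was 1.35% of 2735 genes with 1 or 2 copies (median 0.08) and 2.26% of 5439 genes with none (median 0.07), members left out. The limit of 4 copies came from the NR4A windows, and 1 gene of 48 is too few to set against these shares. Whether the copies bear on the differences of the NR4A genes was not tested.

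The identity of the samples was checked in the same table. All 14 measured markers of γδ T cells and IL-17-producing cells were above background on at least 1 array, with Tcrg-V6, the Vγ6 gene, at log2 signals of 12.64 (WT) and 12.33 (KO). The class II gene H2-Ab1 went from 7.68 to 6.67, H2-Eb1 from 6.95 to 5.98 and H2-Aa from 6.09 to 5.08, of which only H2-Aa was below background on the KO array. Background is the 95th percentile of 1228 olfactory receptor rows and was 5.94 (WT) and 5.86 (KO) on the log2 scale.

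Of the 3 NR4A genes, Nr4a2 and Nr4a1 were lower on the KO array by at least 1.5-fold, and Nr4a3 was near background on both arrays. The WT signal of Nr4a2 was 1544 and its KO signal 620.5, which is 40.2% of the WT value. On the log2 scale it went from 10.59 to 9.28, a difference of -1.32, or 2.49-fold lower. Nr4a2 is the one member past the 2-fold threshold, and it lay far above background on both arrays, by 4.65 and 3.41 log2 units. Nr4a1, the family member most used as a reporter of T cell receptor signals, had signals of 7583 and 4180, or 55.1% of the WT value. Its log2 signal went from 12.89 to 12.03, a difference of -0.86, which is 1.81-fold lower. Nr4a3 had signals of 88.3 and 77.5, only 0.53 and 0.41 log2 units above the 2 backgrounds, and its difference was -0.19. Of other genes of like signal, 27.6% had a lower difference, so no direction is read for Nr4a3.

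The share of all genes past these limits gives the background for that count. Taking the 14494 genes that passed background on either array, the share at least 1.5-fold lower on the KO array was 3.17% and the share at least 2-fold lower 1.15%, against 2 and 1 of the 8 members. In the other direction the share at least 1.5-fold higher was 4.0%, and none of the 8 members was. Because the members were chosen with earlier results of these data known, these shares describe them and are no test. Without predicted gene models and small RNAs, the shares at least 1.5-fold and 2-fold lower were 1.67% and 0.454% of 9469 genes. Only 110 genes (0.759%) had a lower difference than Nr4a2 and 219 (1.51%) a lower one than Nr4a1, while 2704 (18.7%) lay below Nr4a3. Among 740 other genes with a mean log2 signal within 0.5 of that of Nr4a1, 6 had a lower difference, and for Nr4a2 it was 6 of 1655. In those 2 ranges of signal, 1.89% (Nr4a1) and 2.36% (Nr4a2) of genes were at least 1.5-fold lower. The members went both ways, and their median depended on which genes near background were kept. It was -0.08 for the 8, -0.19 for the 7 above background on both arrays and -0.37 with background at the 99th percentile, beside 0.04 for all 14494 genes.

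**Figure D2:**
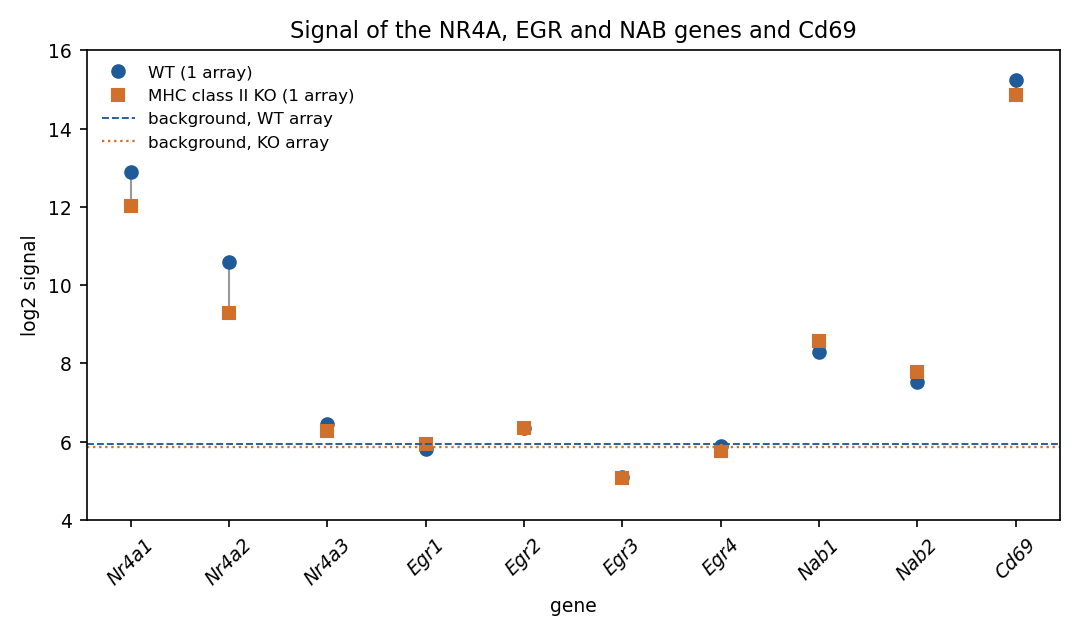
Log2 signal of the 10 members on the WT array (circles) and the KO array (squares), 1 array each, with the background of each array as a horizontal line. Nr4a1 and Nr4a2 show the widest gaps, at 12.89 against 12.03 and 10.59 against 9.28, while the 4 EGR genes lie near or under the background lines. Heights of different genes come from different probes and give no order of RNA amounts.

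The EGR genes lay under background or within 0.50 log2 units above it, so small differences could not be read. Egr2, a zinc finger factor needed for NKT cell development, had signals of 81.0 and 82.3 and a difference of 0.02. Its sign changed with the scaling, to -0.02 after centring on the median over genes. Egr1 had signals of 56.3 and 61.5 and passed background on the KO array alone, by 0.08 log2 units, so it has no fold that can be told from background. Egr4 lay just under background on both arrays, with signals of 59.9 and 54.5. Egr3, which acts with Egr2 in T cells, was under background on all 3 of its rows, and its brightest row had signals of 34.4 and 33.8. No EGR gene was therefore measured well enough to be set beside Nr4a1 and Nr4a2.

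The genes for the EGR corepressors were above background on both arrays, with differences above 0. Nab1 had signals of 313.9 and 379.7 and a difference of 0.27, and Nab2, itself induced by EGR proteins, had signals of 184.2 and 219.7 and a difference of 0.25. Both stayed within 1.5-fold, and 18.4% and 20.2% of all genes above background had a higher difference. A dimmer row also named Nab2 went the other way, with signals of 78.3 and 70.1 and a difference of -0.16, and the mean of the 2 Nab2 rows gave 0.05. In 160 genes a pair of distinct rows passed background on both arrays, and the gap between the differences of 2 rows had an SD of 0.24. The gap between the 2 Nab2 rows exceeded that SD, whereas Nr4a1, Nr4a2, Nr4a3 and Cd69 each had a single row and no such check.

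Cd69 had a WT signal of 38510 and a KO signal of 29810, 77.4% of the WT value. The log2 signal went from 15.23 to 14.86, a difference of -0.37, which is within 1.5-fold. Bright genes varied little between the arrays: among 262 other genes with a mean log2 signal within 0.5 of that of Cd69, 11 (4.2%) had a lower difference. Across all genes above background, 7.83% lay below Cd69. The highest signals on both arrays ran past 65535, the ceiling of a 16-bit scanner, so the deposited values are not plain scanner readings. The sources name RMA but neither its variant nor how values came past that ceiling, and the folds of all members rest on that processing. In bulk arrays, fewer cells that carry a transcript and less of it per cell cannot be told apart.

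**Figure D3:**
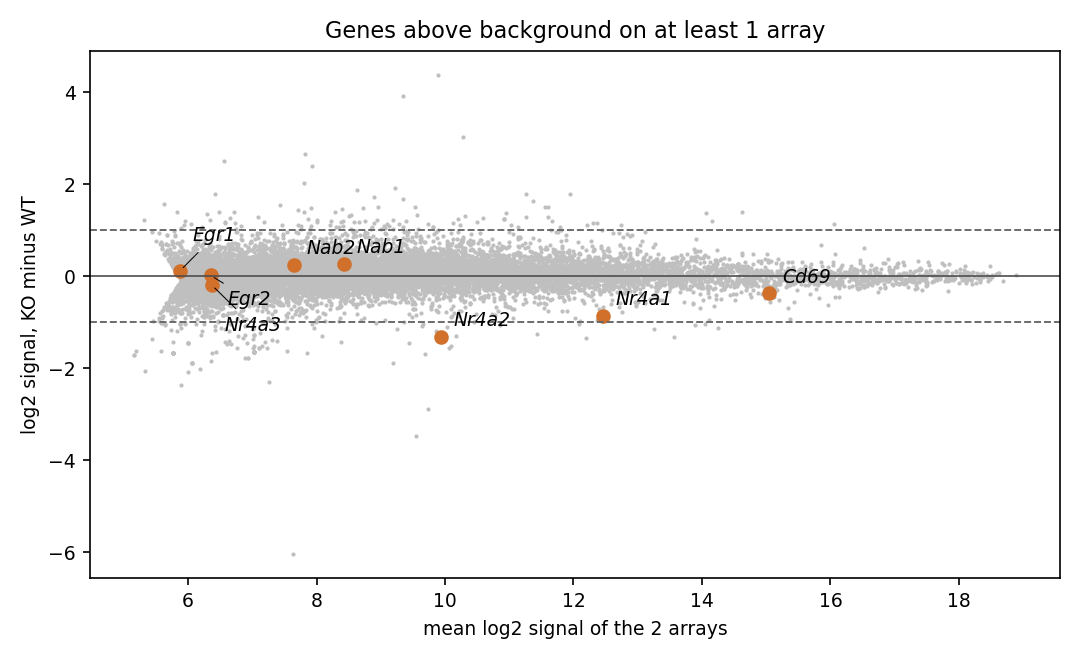
Difference in log2 signal (KO minus WT) against the mean log2 signal of the 2 arrays for the 14494 genes above background on at least 1 array, in grey, with the 8 members above background marked and dashed lines at 2-fold. Nr4a2 lies below the lower line at -1.32, Nr4a1 just above it at -0.86, and Cd69 at -0.37 sits in a range of signal where genes spread little.

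Scaling had little effect on the NR4A genes. Under centring on the median, quantile normalization and a loess correction, Nr4a2 ran from -1.40 to -1.33, Nr4a1 from -0.92 to -0.87, Nr4a3 from -0.23 to -0.15 and Cd69 from -0.41 to -0.33. Nab1 and the brighter Nab2 row stayed above 0 under all 3, and so did Egr1. Egr3, below background, changed sign.

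**Figure D4:**
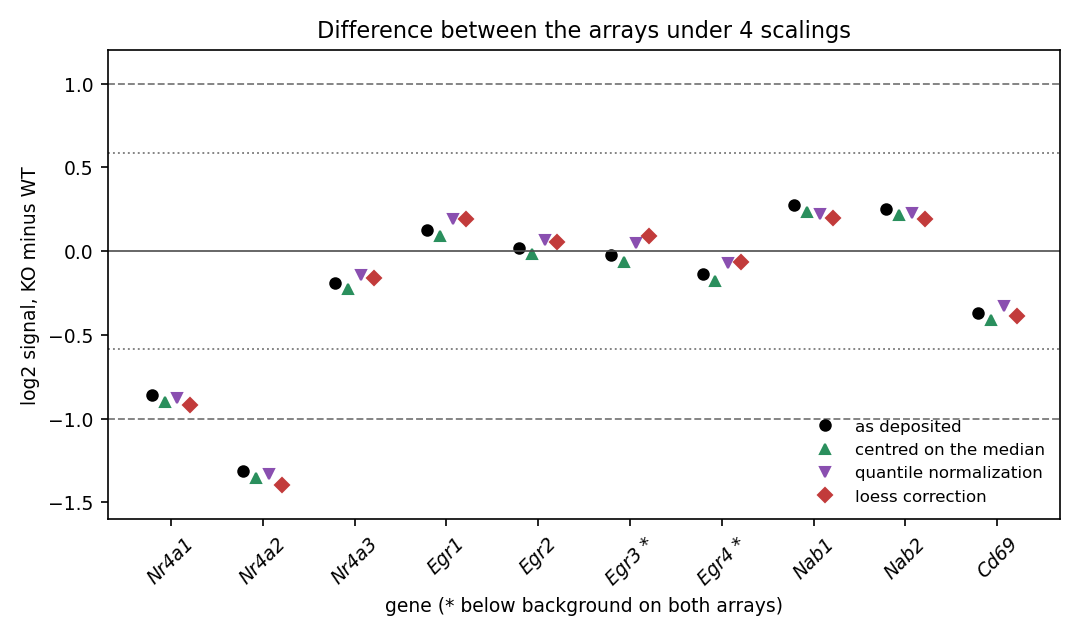
Difference in log2 signal (KO minus WT) of each member as deposited and under 3 other scalings, with dotted lines at 1.5-fold and dashed lines at 2-fold. Under all 4 scalings Nr4a2 lies past 2-fold and Nr4a1 between 1.5-fold and 2-fold lower, and the other 8 genes stay within 1.5-fold.

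Other genes that T cell receptor signals are known to raise went both ways. Of 41 such genes, 36 were above background, with 9 lower by 1.5-fold or more and 4 higher by as much, beside 3.17% and 4.0% of all genes. The list was chosen with earlier results of these data known, so these shares describe it and are no independent result. The 9 include Ccl3, which passed background on the WT array only and is bounded at 1.44-fold lower or more. Taking that bound in place of its measured difference, 8 were lower by 1.5-fold or more. Their median was -0.15, beside 0.04 for all genes. The lowest was Ctla4, the inhibitory receptor that competes with CD28, at log2 signals of 11.28 and 7.82 and a difference of -3.46. Plaur, the urokinase receptor gene, differed by -2.30 and Gem, a small GTP-binding protein gene, by -1.68. Il2ra, the high-affinity interleukin 2 receptor chain, lay at the other end with log2 signals of 9.91 and 11.10 and a difference of 1.19. Cd5, a surface inhibitor whose level tracks receptor signal strength, differed by 0.63, opposite in sign to Nr4a1. Id3, an inhibitor of E proteins that EGR factors induce, differed by 0.37.

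Among genes reported as targets of the 2 families, none above background was past 1.5-fold. With 7.17% of all genes past it in either direction, lists this short can hold none, and nothing particular to the targets is read from that. Of 11 reported NR4A targets, 6 were above background, with a median of -0.10, which came to 0.04 with no background filter. Pdcd1, the gene for the inhibitory receptor PD-1, differed by -0.39, Tox2 by -0.28 and Bcl2l11, the gene for the death protein BIM, by -0.22. Ikzf2, which encodes the factor Helios, differed by 0.28. Of 16 reported EGR targets, 11 were above background with a median of 0.10. Dgka, a diacylglycerol kinase that damps receptor signals, differed by 0.53 and Zbtb16, the gene for the innate-like T cell factor PLZF, by 0.47. Crtam, an adhesion receptor, went the other way at -0.39.

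Genes upstream of the NR4A and EGR genes were within 1.5-fold about as often as all genes. The list held kinases of the ERK route, calcineurin, NFAT, SRF with its cofactors, CREB with its coactivators, and MEF2 with its repressors. Of 31 genes 28 were above background, 20 had differences above 0, 1 (3.57%) was at least 1.5-fold higher and none lower, near the shares of 4.0% and 3.17% over all genes (median 0.13). The one past 1.5-fold was Prkd2, the gene for protein kinase D2, at 0.68. Crem, which belongs to the CREB family and yields repressors as well as activators, was the lowest at -0.54. Mrtfb, an SRF cofactor, differed by 0.43 and Cabin1, which represses MEF2 and calcineurin, by 0.37. Of 9 genes for partner receptors and corepressors of NR4A proteins, 5 were above background, each within 1.5-fold. Rcor1 (CoREST) differed by 0.49, the retinoid X receptor genes Rxra and Rxrb by 0.24 and 0.15, and the glucocorticoid receptor gene Nr3c1 by -0.09.

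Of 8 genes of tissue exit, which CD69 opposes, 5 were above background, with a median of 0.15. All 5 were within 1.5-fold, as were 92.8% of all genes. S1pr1, the receptor that CD69 pulls down, went from a log2 signal of 9.27 to 9.42 (0.15). S1pr4 differed by 0.17, the chemokine receptor gene Ccr7 by 0.08 and Gnai2, a G protein subunit through which these receptors signal, by 0.32.

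**Figure D5:**
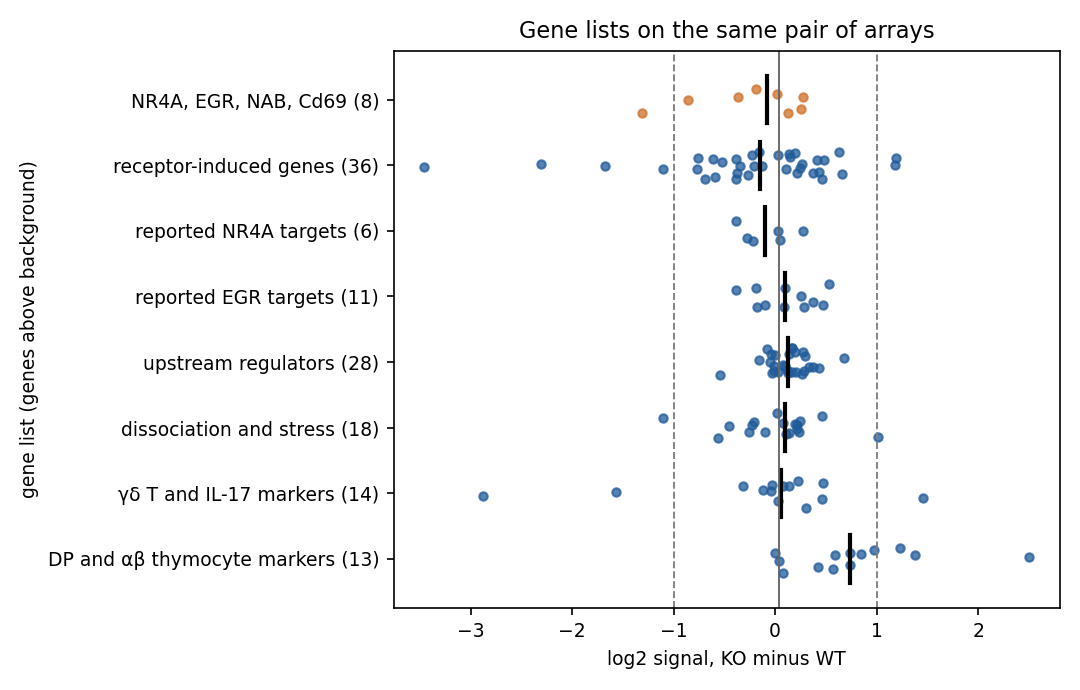
Difference in log2 signal (KO minus WT) of each gene above background in 8 lists, with the number of such genes in brackets. Black bars are list medians, the grey line is the median of all genes above background (0.04) and dashed lines mark 2-fold. The members spread from -1.32 to 0.27, the receptor-induced genes from -3.46 to 1.19, and the thymocyte markers sit mostly to the right with a median of 0.74.

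Other differences moved between the same arrays, and their part in the values of the NR4A genes was not tested. Of 17 marker genes of thymocytes at the double positive stage and of the αβ lineage, 13 were above background. Of those, 8 were at least 1.5-fold higher on the KO array and none lower, beside 4.0% and 3.17% of all genes. The median of the 13 was 0.74, beside 0.04 for all genes. The marker lists here and below were also chosen with earlier results of these data known. The 8 include genes above background on the KO array only. With values under background raised to it 7 were at least 1.5-fold higher, and among genes above background on both arrays 6 were. The summed signal of the 14 measured went from 17075 to 36715, most of it from Cd8b1, and from 6441 to 9113 without that gene. Cd8b1, the CD8 β chain gene, differed by 1.38, Aqp11 by 1.23 and Cd24a by 0.97, and Dntt, which adds nucleotides to rearranging receptor genes, passed background on the KO array only, which bounds it at 3.68-fold higher or more. Genes raised by cell dissociation and stress, a list that shares immediate early genes with the receptor-induced list, had a median of 0.09 over 18 genes. Among them Hsph1, a heat shock protein gene, differed by 1.02, Ier5 by 0.46, Klf6 by -0.57 and Fosl2, an AP-1 subunit gene, by -1.11.

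The γδ T cell and IL-17 markers had a median of 0.05 over 14 genes. Il17f and Il17a, the interleukin 17 cytokine genes, differed by -2.88 and -1.57, and the chemokine receptor gene Ccr6 by 1.46.

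Defining markers of other cells of the thymus were mostly under background. The B cell genes Ms4a1, Cd79a and Pax5 were under background on both arrays, with 2 of 9 measured B cell markers above it. The summed signal of the 9 went from 1317 to 1380, most of it from Cd79b (0.11). Of 14 markers of dendritic cells and macrophages 5 passed background, and the summed signal went from 967 to 1462. All 5 had differences above 0. Of those, 2 were at least 1.5-fold higher on the KO array and none lower, beside 4.0% and 3.17% of all genes. The 2 were Irf8 at 1.11 and Cd68 at 0.91. Tyrobp differed by 0.34 and Siglech by 0.03, and Lyz2, above background on the KO array only, by 0.37. The other 9, Itgax, Adgre1 and Csf1r among them, were under background on both arrays. Of 12 epithelial and stromal markers 3 were above background (sums 792 and 738), and Krt8 and Epcam passed it on the WT array only, with bounds of 1.18-fold and 1.17-fold lower or more. Of 10 granulocyte and mast cell markers 4 were above background (sums 788 and 675), with S100a9 at -0.46. Of the red blood cell markers 2 were measured, and Hbb-y differed by -0.22.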

How the data were processed

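Per the labels, RNA from the sorted cells was isolated with TRIzol, cleaned on columns, amplified and biotin-labelled with a whole-transcript kit. The authors deposited linear intensities for 65956 rows on each array. The submitters' processing notes name RMA and Affymetrix Expression Console 1.4.1. The sources used here do not state which RMA variant was run or on which genome build the rows rest. On the WT and MHC class II KO arrays, 767 and 742 rows lay above 65535. The number of arrays limits the precision.

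The log2 of each value was taken. Row names came from the platform annotation, which can be old, with symbols updated by gene identifier through the RefSeq table of GRCm38.p6 (22818 rows matched). A single symbol was given for 30604 rows, several for 2146 and no symbol for 33206. A gene's brightest row with its symbol alone was used, and all rows of members are reported, none of which named a second gene. A gene was kept when above background on at least 1 array (14494 genes, 13710 of them on both). Where 1 array alone was above background, a bound was computed against the other array's background.

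Members and lists were chosen with earlier results of these data known. By rule, named genes are the 10 members, up to 4 genes per list by absolute difference, and Ctla4, Cd5, Id3, Zbtb16 and Tcrg-V6. The genes nearest in signal were taken by distance. Ccl3, Siglech, Ell2, the class II genes and the chromosome neighbours were named outside that rule. So were Ms4a1, Cd79a, Pax5, Itgax, Adgre1 and Csf1r, picked from the markers under background. Symbols on rows with several genes were left out. Counting at 2-fold was tested on simulated data with known changes larger than 2-fold, which checks the counting and not the reading of smaller differences. Alternatives were 3 scalings, raising low values to background, averaging rows, 3 other background filters, and for all genes other thresholds and leaving out predicted models. Python 3.11.15, pandas 2.3.3, numpy 2.4.6 and statsmodels 0.14.6 were used.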

Additional observations from a re-analysis of the deposited data

How the results depend on the processing

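No paired analysis was possible because each genotype has 1 array, and no array could be left out. The 3 background filters leave a member's own difference as it is. Under the other 5 alternatives all 50 member differences moved by less than 0.24. That is the SD of the gap between the differences of 2 rows of a gene, and it holds no variation between animals or arrays. Nr4a2 ranged from -1.40 to -1.32 and Nr4a1 from -0.92 to -0.86. Only the 3 scalings could move these 2 genes, as each has a single row far above background. Under each of the 8 alternatives 2 members were at least 1.5-fold lower. For these 2 genes that outcome was open to change under the 3 scalings alone. The median of members above background was -0.37 with background at the 99th percentile of olfactory receptor rows, where Nr4a3, Egr1 and Egr2 fell under it. Over all genes, 115 were at least 2-fold higher and 167 lower. Past 1.5-fold it was 580 and 459, past 3-fold 15 and 82, and without predicted models and small RNAs 74 and 43. Among genes above background on both arrays 102 were at least 2-fold higher and 105 lower. Of the receptor-induced genes, 8 to 10 were at least 1.5-fold lower and 3 to 4 higher under the 8 alternatives. The thymocyte markers had 6 to 8 genes at least 1.5-fold higher. Signal over background limits the 4 EGR genes and Nr4a3.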

Other observations

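Genes near the members on their chromosomes were read in the same way, a comparison chosen after the members' values had been seen. For each member, the nearest protein-coding gene above background on either side was taken from the RefSeq gene order, 20 genes in all. The 6 neighbours of the NR4A genes had differences from -0.32 to 0.20, and none reached 1.5-fold, a limit passed by 7.17% of all genes above background in either direction. The genes beside Nr4a1 were Grasp (0.05) and Atg101 (0.13). Those nearest to Nr4a2 were Fmnl2 (-0.32), 7 protein-coding genes away, and Gpd2 (-0.06), 3 away, so neither adjoins it. Fmnl2 passed background on the WT array only. Of all 20 neighbours 1 was past 1.5-fold, near that share. That gene was Clec2d, a C-type lectin gene next to Cd69 that encodes a ligand of an inhibitory NK cell receptor. Its log2 signal was 8.34 (WT) and 9.36 (KO), a difference of 1.02, opposite in sign to Cd69 at -0.37.

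The genes whose pair of log2 signals lay closest to those of the NR4A genes, by Euclidean distance over the 2 arrays, were also noted. Nearest to Nr4a1 were Ahr, a ligand-activated transcription factor gene (distance 0.09, difference -0.92), and Acpp, which encodes an acid phosphatase (0.13, -0.67). Nearest to Nr4a2 were Fosl2 (distance 0.20, difference -1.11) and Il17a (0.26, -1.57). With 2 arrays such a distance describes signal alone. Both signals entered the distance, so the likeness of the differences follows from the selection.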
